A study of Mus musculus with 18 samples.

Results

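The Slc25 family of mitochondrial carriers was followed across 18 mouse liver arrays. Its members were the genes whose probe carried a single gene symbol beginning with Slc25a, with Slc25a20 left out, which gave 45 of the 22180 genes measured by a probe of 1 symbol. Each of the 45 had 1 such probe, so no choice between probes was needed. The mice were male, of strain C57BL6, without a stated genetic change, and were 6 weeks old when a 12 week dietary intervention began and 18 weeks old at its end. They formed 6 groups of 3 biological replicates. On food with 45% of its calories as fat (high-fat), mice were given PFNA, PFOS or neither, and on food with 10% of its calories as fat (low-fat), likewise PFNA, PFOS or neither. PFNA (perfluorononanoic acid) and PFOS (perfluorooctane sulfonic acid) are perfluorinated surfactants that persist in the body. Doses are not stated in the sources used here, so the compounds could not be matched by dose.

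Slc25 proteins are carriers of the mitochondrial inner membrane, built from repeats of a similar fold, which exchange nucleotides, phosphate, carboxylates, amino acids, cofactors and metals between the cytosol and the matrix. In hepatocytes they link the citric acid cycle to fatty acid synthesis, run the malate-aspartate shuttle that brings reducing equivalents into mitochondria, and pass ornithine for the urea cycle. Most are imported without a cleaved leader, through the outer membrane pore Tomm40 and the small Timm chaperones. Slc25a17 sits in peroxisomes and Slc25a46 in the outer membrane.

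Values are array signals, taken as log2 because of their range, and a difference of 1 would then be a 2-fold change. Hepatocyte markers (Alb, Ttr, Apoa1, Serpina1a and Cyp2e1) averaged 12.36 to 12.63 in every array, which fits the liver label. On the first principal component of all probes, which held 17.9% of the variance, 5 arrays stood apart from the other 13. They were the 3 high-fat PFOS arrays, high-fat PFNA replicate 3 and low-fat PFOS replicate 3. The last 2 arrays lie away from the other 2 of their own groups and are called the 2 divergent arrays below. In whole tissue, a lower signal from fewer cells of a type and from less RNA per cell cannot be told apart.

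The promoter entries of the 3 members with the smallest p-values in high-fat PFOS livers are shown so that a reader can see their bases. Each is 250 bases before to 50 bases after the start site of its entry, 5' to 3' on the gene's strand, from RefSeq on GRCm38.p6. They lie at chr11:70646990-70647289 on the minus strand for Slc25a11, chr11:120491587-120491886 on the plus strand for Slc25a10 and chr19:5877572-5877871 on the plus strand for Slc25a45. The start site of an entry need not be the end of the gene's full span. The Slc25a11 window lies wholly inside that span, chr11:70644019-70647531. The Slc25a45 start site also lies inside its span, chr19:5877801-5885768. Capitals mark the letters TCGCGAGA on either strand.
Slc25a11: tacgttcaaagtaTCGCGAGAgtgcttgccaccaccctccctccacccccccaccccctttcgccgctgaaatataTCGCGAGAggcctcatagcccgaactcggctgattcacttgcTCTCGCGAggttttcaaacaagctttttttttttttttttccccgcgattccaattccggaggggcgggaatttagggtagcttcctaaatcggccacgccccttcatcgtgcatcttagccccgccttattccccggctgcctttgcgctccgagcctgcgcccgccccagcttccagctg
Slc25a10: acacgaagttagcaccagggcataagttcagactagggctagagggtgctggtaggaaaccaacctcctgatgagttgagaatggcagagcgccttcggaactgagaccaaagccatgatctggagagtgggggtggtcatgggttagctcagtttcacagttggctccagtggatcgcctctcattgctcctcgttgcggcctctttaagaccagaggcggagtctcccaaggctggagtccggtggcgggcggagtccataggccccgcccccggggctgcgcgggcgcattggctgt
Slc25a45: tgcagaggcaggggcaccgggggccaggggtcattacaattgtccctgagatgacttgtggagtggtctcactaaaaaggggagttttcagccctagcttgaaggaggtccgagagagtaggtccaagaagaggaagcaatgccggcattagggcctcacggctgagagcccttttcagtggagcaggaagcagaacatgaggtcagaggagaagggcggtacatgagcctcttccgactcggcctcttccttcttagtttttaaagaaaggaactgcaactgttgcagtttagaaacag
Of the 45 members, 35 had a promoter in the RefSeq table, with 45 entries in all. The search covered both strands. A direct repeat of AGGTCA with any 1 base between the copies, the letters TCAAGGTCA and the NRF1 palindrome were in none of these 45 entries, and in 0.0396%, 0.423% and 0.971% of all 32851 promoters of the same length. TCGCGAGA, a motif chosen after reading the sequences, was in 2 members, Slc25a11 and Slc25a4, and in 0.995% of all promoters. Slc25a11 held it 3 times, with first bases at -237, -174 and -132 from the start site of its entry, all within the gene's full span. Slc25a4 held it at overlapping places on both strands, with first bases at -17 and -19.

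Signals of the family spanned a wide range, with means over 18 arrays from 3.22 to 11.77. The median member lay at the 86.4th percentile of all probes. There were 37 members above the median probe, at 4.48, and 8 at or below it, which were not shown to lie above background. These 8 were Slc25a2, Slc25a14, Slc25a18, Slc25a31, Slc25a41, Slc25a43, Slc25a53 and Slc25a54. The median within-group SD of the family was 0.19, the same as the 0.19 of probes above the median signal, against 0.21 for all probes. Steadiest were Slc25a3, the phosphate carrier, with an SD of 0.05, Slc25a5, an ADP/ATP carrier, with 0.09, and Slc25a10, with 0.10. The signals of 10 members ranged over more than 1 across the 18 arrays, with Slc25a30 at 2.21 and Slc25a25 at 2.05.

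**Figure D1:**
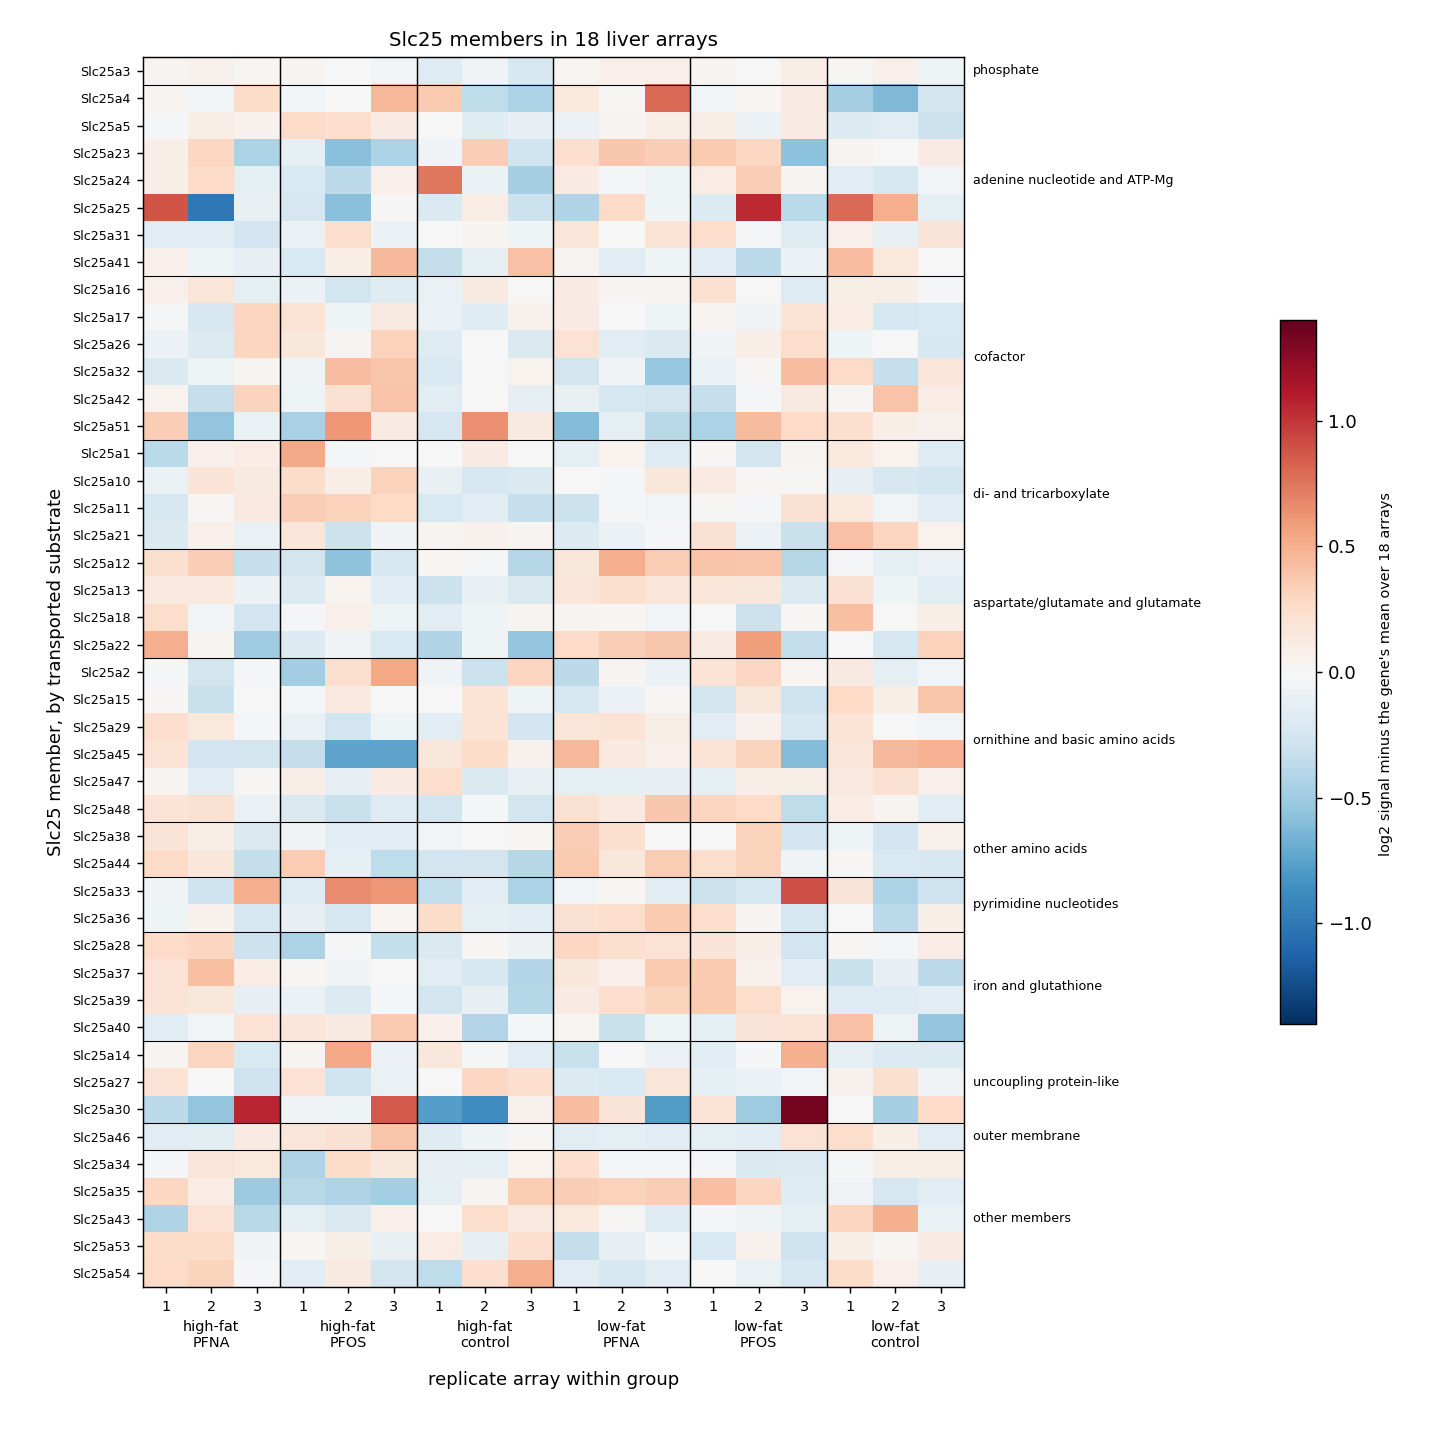
Signal of all 45 members, in rows grouped by transported substrate, in the 18 arrays, in columns by group and replicate. Colour is the log2 signal minus the mean of that gene over 18 arrays. Slc25a30 and Slc25a25 hold the deepest colours, in single arrays, while Slc25a3 stays pale throughout.

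No member passed the test in any of the 9 comparisons (limma, adjusted p under 0.05 over 34472 probes). The share of all probes called was 0.113% for PFNA against control on the high-fat diet, 1.02% for PFOS on the high-fat diet, 0.566% for PFNA on the low-fat diet and 0.389% for PFOS on the low-fat diet. It was 0.0029% for high-fat against low-fat controls, 0.0029% for PFNA against PFOS on the high-fat diet, 0% for PFNA against PFOS on the low-fat diet and 0% for each interaction of diet with a compound. At an unadjusted p under 0.05 in limma, PFNA against control on the high-fat diet held 3 members (6.67%, against 9.77% of all probes), PFOS on the high-fat diet 7 (15.6%, against 13.5%), PFNA on the low-fat diet 11 (24.4%, against 12.9%) and PFOS on the low-fat diet 6 (13.3%, against 11.9%). Among the 17234 probes above the median signal, where most members lie, these shares were 13%, 19.4%, 18.4% and 16.6%. Set against those brighter probes, the members' share was higher for PFNA on the low-fat diet and lower in the other 3. The members' share counts all members, including 8 at or below the median signal, while the brighter probes leave out such signals. The lower shares therefore do not show that members reached this p less often than probes of like signal. No member differed by more than 1 in any comparison.

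**Figure D2:**
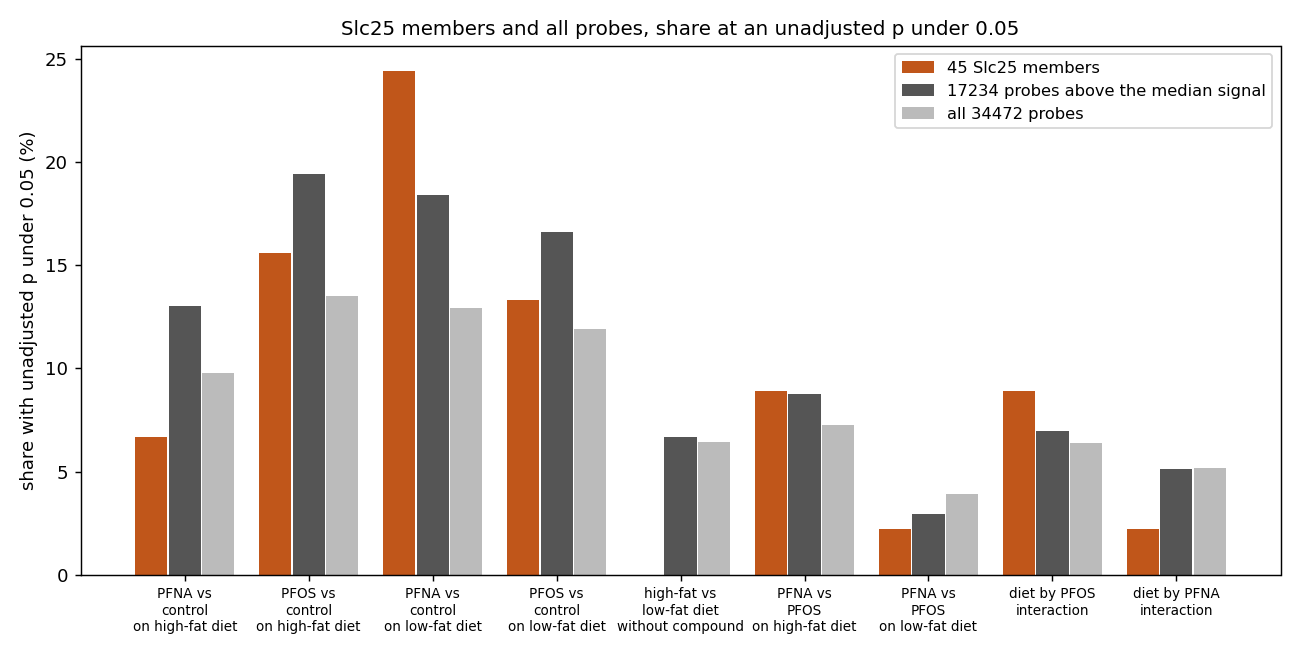
Share of the 45 members, of the 17234 probes above the median signal and of all 34472 probes that had an unadjusted p under 0.05, in percent, for each of the 9 comparisons. The members' bar is highest for PFNA on the low-fat diet, at 24.4%, and at 0 for high-fat against low-fat controls.

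The di- and tricarboxylate carriers, which move malate, 2-oxoglutarate, succinate, citrate and oxodicarboxylates, held the smallest p of the family. Slc25a11 exchanges 2-oxoglutarate for malate in the malate-aspartate shuttle. Its signal was 9.69, 9.66 and 9.62 in high-fat PFOS livers, against 9.13, 9.19 and 9.02 in high-fat controls. The 3 PFOS arrays were above all other arrays of the study, and the groups did not overlap. The difference was 0.54 (SE 0.13, 95% interval 0.27 to 0.81, n = 3 each) with an adjusted p of 0.0514 in limma, just over the threshold. Without the 2 divergent arrays, the same difference had an adjusted p of 0.0252. Neither array belongs to the groups compared, so leaving them out changes only the spread shared by all groups, which it lowers by construction. Slc25a11 measured 9.12, 9.36 and 9.48 in high-fat PFNA livers, where the last value belongs to a divergent array, and the difference from high-fat controls was 0.21. On the low-fat diet it was 9.04, 9.33 and 9.30 with PFNA and 9.36, 9.32 and 9.56 with PFOS, against 9.49, 9.30 and 9.18 in controls, and the 3 groups overlapped.

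Slc25a10, which exchanges malate or succinate for phosphate, lay above the controls in all 4 exposed groups. It measured 9.02, 9.30 and 9.24 in high-fat PFNA livers and 9.37, 9.21 and 9.44 in high-fat PFOS livers, against 9.01, 8.88 and 8.92 in high-fat controls. In low-fat livers it measured 9.12, 9.09 and 9.28 with PFNA and 9.23, 9.13 and 9.13 with PFOS, against 9.0, 8.89 and 8.86 in controls. No exposed array reached down to the controls of its diet. The difference was 0.25 for PFNA and 0.40 (SE 0.11) for PFOS on the high-fat diet, and 0.25 for each compound on the low-fat diet. The adjusted p in limma was 0.488 for high-fat PFNA, 0.0917 for high-fat PFOS, 0.366 for low-fat PFNA and 0.399 for low-fat PFOS, so none passed. Both compounds are set against the same control arrays of a diet. Slc25a21, which carries oxodicarboxylates, measured 6.88, 6.99 and 7.06 in low-fat PFNA livers, against 7.49, 7.38 and 7.12 in low-fat controls, a difference of -0.35 with an adjusted p of 0.327 in limma. Slc25a1, the citrate carrier, differed from high-fat controls by -0.11 with PFNA and by 0.13 with PFOS.

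**Figure D3:**
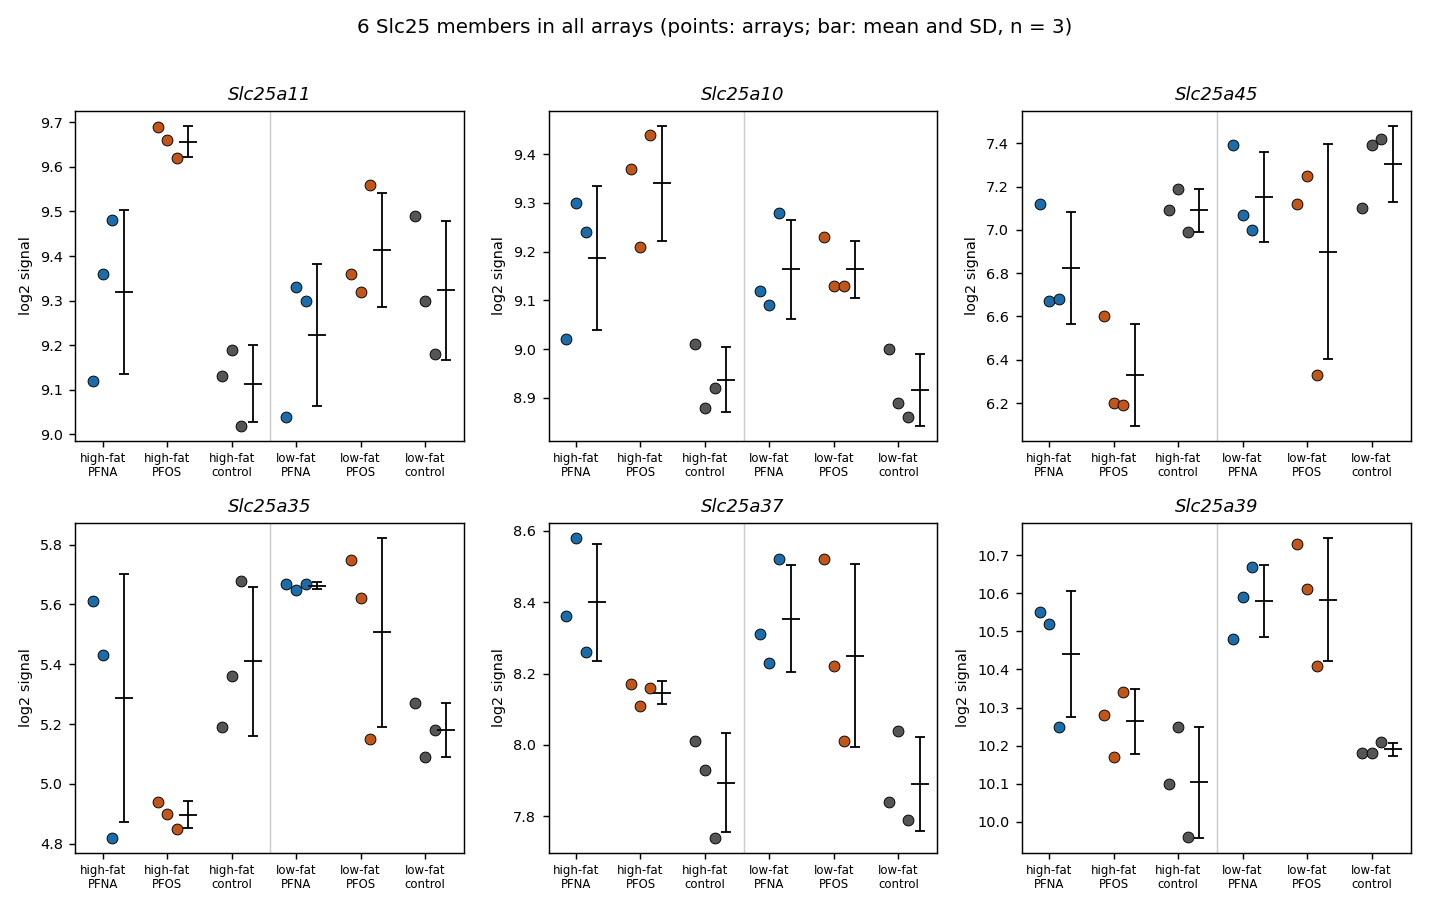
Log2 signal of Slc25a11, Slc25a10, Slc25a45, Slc25a35, Slc25a37 and Slc25a39 in every array, with high-fat groups to the left and low-fat groups to the right of the grey line. Points are arrays, and bars are the mean and SD of 3 arrays. The 3 high-fat PFOS points of Slc25a11 lie between 9.62 and 9.69, above every other array.

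Enzymes of shuttles and of the urea cycle, listed as partners of the family, give the setting. The 13 listed were Mdh1, Mdh2, Got1, Got2, Acly, Cs, Me1, Gpd1, Gpd2, Otc, Arg1, Ass1 and Cps1. Not all of them work with the di- and tricarboxylate carriers. Mdh2, the mitochondrial malate dehydrogenase, rose by 0.77 in high-fat PFOS livers (adjusted p 0.00472 in limma) and by 0.60 in low-fat PFOS livers (adjusted p 0.0326). Its PFNA differences were 0.53 on the high-fat diet (adjusted p 0.0779) and 0.47 on the low-fat diet (adjusted p 0.0672). Me1, the cytosolic malic enzyme, rose by 1.59 in high-fat PFOS livers (adjusted p 0.0407). Got1, another partner enzyme, was not called and differed in direction between the diets. With PFOS it differed from controls by 0.99 on the high-fat diet (adjusted p 0.152) and by -0.81 on the low-fat diet (adjusted p 0.318). Its mean was 10.62 with PFOS and 9.63 in controls on the high-fat diet, and 10.03 and 10.84 on the low-fat diet. The control means of Got1 thus lay further apart than its PFOS means. Of the 13 partner enzymes, 2 were called higher under PFOS on the high-fat diet and 1 under PFOS on the low-fat diet. The count was 0 under PFNA on either diet, and none was called lower. In those comparisons 1.02% and 0.389% of all probes were called with PFOS on the high-fat and low-fat diets, and 0.113% and 0.566% with PFNA. These counts do not show that the compounds differ, and none of the 13 was called in limma between PFNA and PFOS. At an unadjusted p under 0.05 there were 2 on the high-fat diet (7.26% of all probes) and 0 on the low-fat diet (3.92%). Among the 10 genes of carrier import, Timm8a1, a small chaperone of the intermembrane space, rose by 0.72 (adjusted p 0.0284) and Tomm40 rose by 0.51 (adjusted p 0.0436) in high-fat PFOS livers. Timm8a1 averaged 8.15 with PFNA, 8.42 with PFOS and 7.70 in controls on the high-fat diet. On the low-fat diet it averaged 8.03, 7.96 and 8.10 in that order. Its low-fat differences were -0.08 for PFNA (adjusted p 0.896 in limma) and -0.14 for PFOS (adjusted p 0.765). Tomm40 differed from the controls of its diet by 0.41 in high-fat PFNA livers (adjusted p 0.205), 0.47 in low-fat PFNA livers (adjusted p 0.0693) and 0.40 in low-fat PFOS livers (adjusted p 0.166). Of 6 other inner membrane carriers outside the family, Mpc1, a subunit of the pyruvate carrier, fell by 0.67 in low-fat PFOS livers (adjusted p 0.046). Its differences in the other 3 exposed groups were of like size, at -0.60 in high-fat PFNA livers (adjusted p 0.104), -0.51 in high-fat PFOS livers (adjusted p 0.0819) and -0.57 in low-fat PFNA livers (adjusted p 0.0683). None of the 3 outer membrane pores, Vdac1, Vdac2 and Vdac3, was called, in limma at the same threshold, and none reached an unadjusted p under 0.05.

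Slc25a45 belongs with the carriers of ornithine and basic amino acids. It measured 6.60, 6.20 and 6.19 in high-fat PFOS livers, against 7.09, 7.19 and 6.99 in high-fat controls. The PFOS arrays were all below the controls. The difference was -0.76 (SE 0.21, 95% interval -1.20 to -0.32) with an adjusted p of 0.0862 in limma, and of 0.0176 without the 2 divergent arrays. Neither array belongs to the groups compared. Leaving them out lowers the shared spread by construction, since low-fat PFOS replicate 3 lies apart from its group in this gene. With single arrays left out the adjusted p was 0.0861 to 0.242. In high-fat PFNA livers Slc25a45 measured 7.12, 6.67 and 6.68, a difference of -0.27 from the controls. With PFOS on the low-fat diet it measured 7.12, 7.25 and 6.33, where 6.33 is the divergent array. Slc25a15, the ornithine carrier of the urea cycle, measured 9.90, 10.06 and 10.15 with PFNA and 9.88, 10.30 and 9.85 with PFOS on the low-fat diet, against 10.42, 10.22 and 10.52 in low-fat controls. The PFNA arrays lay below all controls and the PFOS arrays overlapped them. Their differences of -0.35 and -0.38 had adjusted p of 0.297 for PFNA and 0.3 for PFOS in limma. Slc25a47, a carrier found mainly in liver, measured 10.80 to 10.83 in low-fat PFNA livers and 11.01 to 11.15 in low-fat controls, with a difference of -0.27 (adjusted p 0.393).

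Of the 4 carriers of iron and glutathione, 2 lay above the controls across several exposed groups. Slc25a37 is mitoferrin 1, which brings iron into mitochondria. It measured 8.36, 8.58 and 8.26 in high-fat PFNA livers and 8.17, 8.11 and 8.16 in high-fat PFOS livers, against 8.01, 7.93 and 7.74 in high-fat controls. Low-fat livers measured 8.31, 8.23 and 8.52 with PFNA and 8.52, 8.22 and 8.01 with PFOS, against 7.84, 8.04 and 7.79 in controls. Only low-fat PFOS replicate 3, a divergent array, fell within the range of the controls of its diet. The differences were 0.51 (SE 0.14) for PFNA and 0.25 for PFOS on the high-fat diet, 0.46 for PFNA and 0.36 for PFOS on the low-fat diet, with adjusted p of 0.202, 0.467, 0.143 and 0.312 in that order in limma. Without low-fat PFOS replicate 1 the last difference was 0.23.

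Slc25a39 brings glutathione into mitochondria. It measured 10.55, 10.52 and 10.25 in high-fat PFNA livers and 10.28, 10.17 and 10.34 in high-fat PFOS livers, against 10.10, 10.25 and 9.96 in high-fat controls. Both exposed groups overlapped the controls, and the PFNA difference was 0.34 (adjusted p 0.36 in limma). On the low-fat diet it measured 10.48, 10.59 and 10.67 with PFNA and 10.73, 10.61 and 10.41 with PFOS, against 10.18, 10.18 and 10.21 in controls. All 6 exposed low-fat arrays were above the controls. Both differences were 0.39 (SE 0.12), with an adjusted p of 0.158 for PFNA and 0.203 for PFOS in limma. Slc25a28, mitoferrin 2, and Slc25a40, a relative of Slc25a39, reached no unadjusted p under 0.05 against the controls. Kupffer cell markers averaged 7.41 to 7.86 in low-fat PFNA arrays and 7.10 to 7.80 in low-fat PFOS arrays, against 6.61 to 7.38 in low-fat controls, and endothelial markers 8.40 to 8.47 and 8.16 to 8.50, against 7.57 to 8.07. Of the 5 Kupffer cell markers 3 and of the 5 endothelial markers 5 had an unadjusted p under 0.05 in limma with PFNA on the low-fat diet. With PFOS on that diet the counts were 1 of 5 and 3 of 5. The share of all probes was 12.9% with PFNA and 11.9% with PFOS, and that of brighter probes 18.4% and 16.6%. None of these markers was called in limma. Their part in the low-fat values of the family was not tested. Of 6 erythroid markers only Slc4a1 was measured by a probe of 1 gene.

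None of the 7 adenine nucleotide and ATP-Mg carriers was called. Slc25a5 is the ADP/ATP carrier of most tissues. It measured 12.04, 12.01 and 11.89 in high-fat PFOS livers, against 11.78, 11.60 and 11.65 in high-fat controls, with no overlap and a difference of 0.30 (SE 0.11, adjusted p 0.2 in limma). With PFNA it was 11.74, 11.86 and 11.83 on the high-fat diet, which overlapped the controls. In low-fat livers it was 11.69, 11.81 and 11.86 with PFNA and 11.85, 11.69 and 11.89 with PFOS, against 11.58, 11.62 and 11.47 in controls, without overlap, and the differences were 0.23 and 0.25 (adjusted p 0.377 for PFNA and 0.357 for PFOS).

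Slc25a4 is the ADP/ATP carrier of heart and skeletal muscle. It measured 5.77, 5.64 and 6.42 in low-fat PFNA livers and 5.59, 5.65 and 5.74 in low-fat PFOS livers, against 5.16, 5.0 and 5.37 in low-fat controls. Every exposed low-fat array was above the controls. The difference was 0.77 for PFNA (SE 0.22, adjusted p 0.118 in limma) and 0.48 for PFOS (adjusted p 0.394). The value of 6.42 stood in low-fat PFNA replicate 3, the array with the highest skeletal muscle markers. Acta1 measured 8.12 there, Ckm 6.20 and Tnnt3 6.52, and the 4 muscle markers averaged 6.21, against 4.25 to 4.81 in the 15 arrays of the other groups. The part of muscle RNA in this value was not tested. Without that array the Slc25a4 difference was 0.53 (adjusted p 0.405). Slc25a23, Slc25a24, Slc25a25 and Slc25a41 exchange ATP-Mg for phosphate and reached no unadjusted p under 0.05, and neither did Slc25a31, which is known from testis.

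Single arrays set the spread of several members. Slc25a30, a relative of the uncoupling proteins, measured 8.29, 8.11 and 9.72 in high-fat PFNA livers, 8.61, 8.60 and 9.52 in high-fat PFOS livers and 7.89, 7.79 and 8.72 in high-fat controls. In low-fat livers it was 9.09, 8.84 and 7.88 with PFNA, 8.85, 8.16 and 10.00 with PFOS and 8.65, 8.19 and 8.93 in controls. The highest values, 10.00 and 9.72, belonged to the 2 divergent arrays, and no Slc25a30 comparison reached an unadjusted p under 0.05. Slc25a33, a pyrimidine nucleotide carrier, measured 7.31, 8.15 and 8.10 in high-fat PFOS livers, against 7.14, 7.34 and 7.04 in high-fat controls, a difference of 0.68 (adjusted p 0.308 in limma). Its values in the divergent arrays were 8.0 in high-fat PFNA replicate 3 and 8.39 in low-fat PFOS replicate 3, above the other 2 arrays of each group. Slc25a23 went the other way, at 10.38 and 10.25 in those 2 arrays. The peroxisomal enzyme Ehhadh was 13.18 and 13.17 in the same arrays, as in the high-fat PFOS arrays, which lay between 12.91 and 13.26, and 11.70 or lower in all others. Ucp3, an uncoupling protein outside the family, was 6.54 and 6.45 in them.

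**Figure D4:**
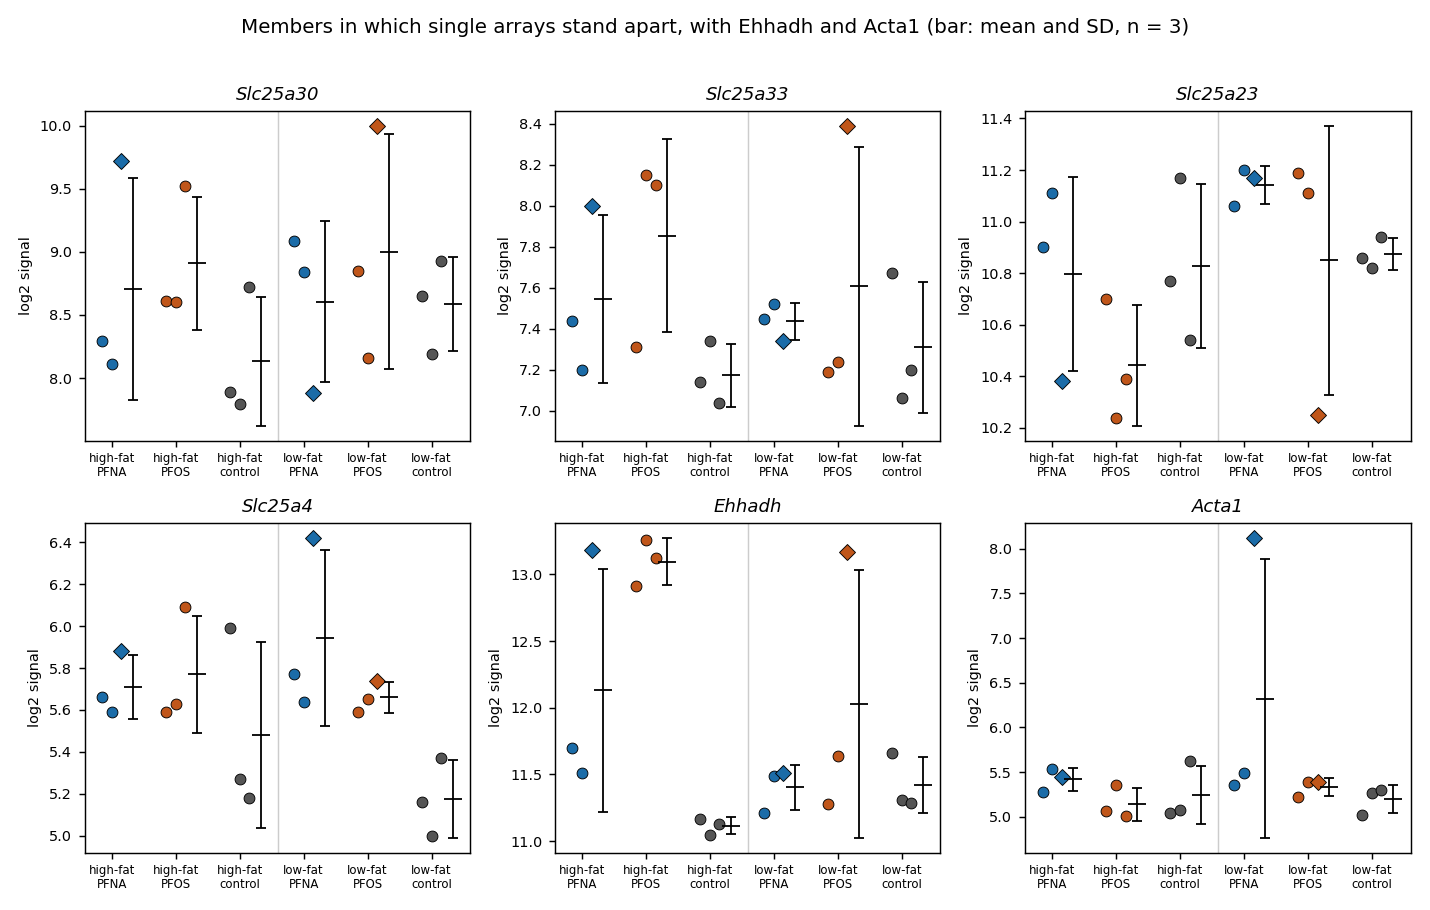
Log2 signal of Slc25a30, Slc25a33, Slc25a23 and Slc25a4, with Ehhadh and Acta1 for comparison, in every array. Circles are arrays, bars the mean and SD of 3, and diamonds mark replicate 3 of high-fat PFNA, low-fat PFNA and low-fat PFOS. Slc25a30 and Ehhadh are both high in the high-fat PFNA and low-fat PFOS diamonds, and Slc25a4 and Acta1 in the low-fat PFNA diamond.

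Slc25a35, whose substrate is not described here, lay on different sides of its controls on the 2 diets, without passing the test. It measured 5.61, 5.43 and 4.82 in high-fat PFNA livers and 4.94, 4.90 and 4.85 in high-fat PFOS livers, against 5.19, 5.36 and 5.68 in high-fat controls. In low-fat livers it measured 5.67, 5.65 and 5.67 with PFNA and 5.75, 5.62 and 5.15 with PFOS, against 5.27, 5.09 and 5.18 in controls. The high-fat PFOS arrays were all below their controls and the low-fat PFNA arrays all above theirs. The PFOS difference on the high-fat diet was -0.51 (adjusted p 0.215 in limma) and the PFNA difference on the low-fat diet was 0.48 (adjusted p 0.258). The interaction of diet with PFOS was -0.84 (SE 0.26, adjusted p 0.759), and that with PFNA was -0.61 (adjusted p 0.943), or -0.37 without high-fat PFNA replicate 3. Without the 2 divergent arrays the interaction with PFOS was -1.02 with an adjusted p of 0.0424, in a comparison where 0.241% of all probes were called. Those arrays were chosen because they lie with the high-fat PFOS arrays, and low-fat PFOS replicate 3 holds the lowest Slc25a35 value of its group, so leaving it out widens this interaction by construction and supports nothing. At an unadjusted p under 0.05, 4 members had an interaction with PFOS (8.89%, against 6.36% of all probes), Slc25a35 and, with positive values, Slc25a42, Slc25a11 and Slc25a46. With PFNA there was 1, Slc25a35 (2.22%, against 5.18%).

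Slc25a46, which acts in mitochondrial shape at the outer membrane, measured 9.24, 9.29 and 9.46 in high-fat PFOS livers, against 8.90, 9.0 and 9.09 in high-fat controls, with no overlap and a difference of 0.33 (adjusted p 0.27 in limma). Slc25a44, a carrier of branched-chain amino acids, measured 8.22, 8.01 and 8.20 in low-fat PFNA livers, against 7.87, 7.63 and 7.62 in low-fat controls, a difference of 0.44 (adjusted p 0.299). Slc25a36, the other pyrimidine nucleotide carrier, measured 5.54, 5.58 and 5.70 against 5.34, 4.97 and 5.41 in the same groups, a difference of 0.37 (adjusted p 0.33, and 0.23 without low-fat control replicate 2). Among the 6 cofactor carriers, Slc25a42 measured 9.02, 8.88 and 8.86 in low-fat PFNA livers and 9.14, 9.52 and 9.23 in low-fat controls, a difference of -0.38 (adjusted p 0.354). The 4 aspartate/glutamate and glutamate carriers reached no unadjusted p under 0.05 in any comparison.

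Other members, none of which passed the test either, included some that varied between single mice. Slc25a25, an ATP-Mg carrier that calcium activates, measured 9.08, 7.19 and 8.09 in high-fat PFNA livers and 7.96, 7.61 and 8.21 in high-fat PFOS livers, against 7.99, 8.30 and 7.89 in high-fat controls. In low-fat livers it measured 7.78, 8.46 and 8.14 with PFNA and 8.0, 9.24 and 7.82 with PFOS, against 8.99, 8.71 and 8.07 in controls. The 2 extremes, 9.24 and 7.19, stood in exposed arrays that were not the divergent ones. Slc25a51, which brings NAD+ into mitochondria, measured 6.62, 7.10 and 6.84 in low-fat PFNA livers, against 7.45, 7.32 and 7.29 in low-fat controls, a difference of -0.50 (adjusted p 0.501 in limma) without overlap. Slc25a12, one of the aspartate/glutamate carriers of the malate-aspartate shuttle, measured 7.75, 8.10 and 7.95 in low-fat PFNA livers, against 7.57, 7.47 and 7.51 in low-fat controls, a difference of 0.42 (adjusted p 0.421). In the divergent arrays Slc25a12 was 7.27 and 7.19, below the other 2 arrays of each group. Slc25a13, the aspartate/glutamate carrier of hepatocytes, measured 10.84, 10.84 and 10.62 in high-fat PFNA livers, against 10.41, 10.60 and 10.50 in high-fat controls, a difference of 0.26 (adjusted p 0.547) without overlap.

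**Figure D5:**
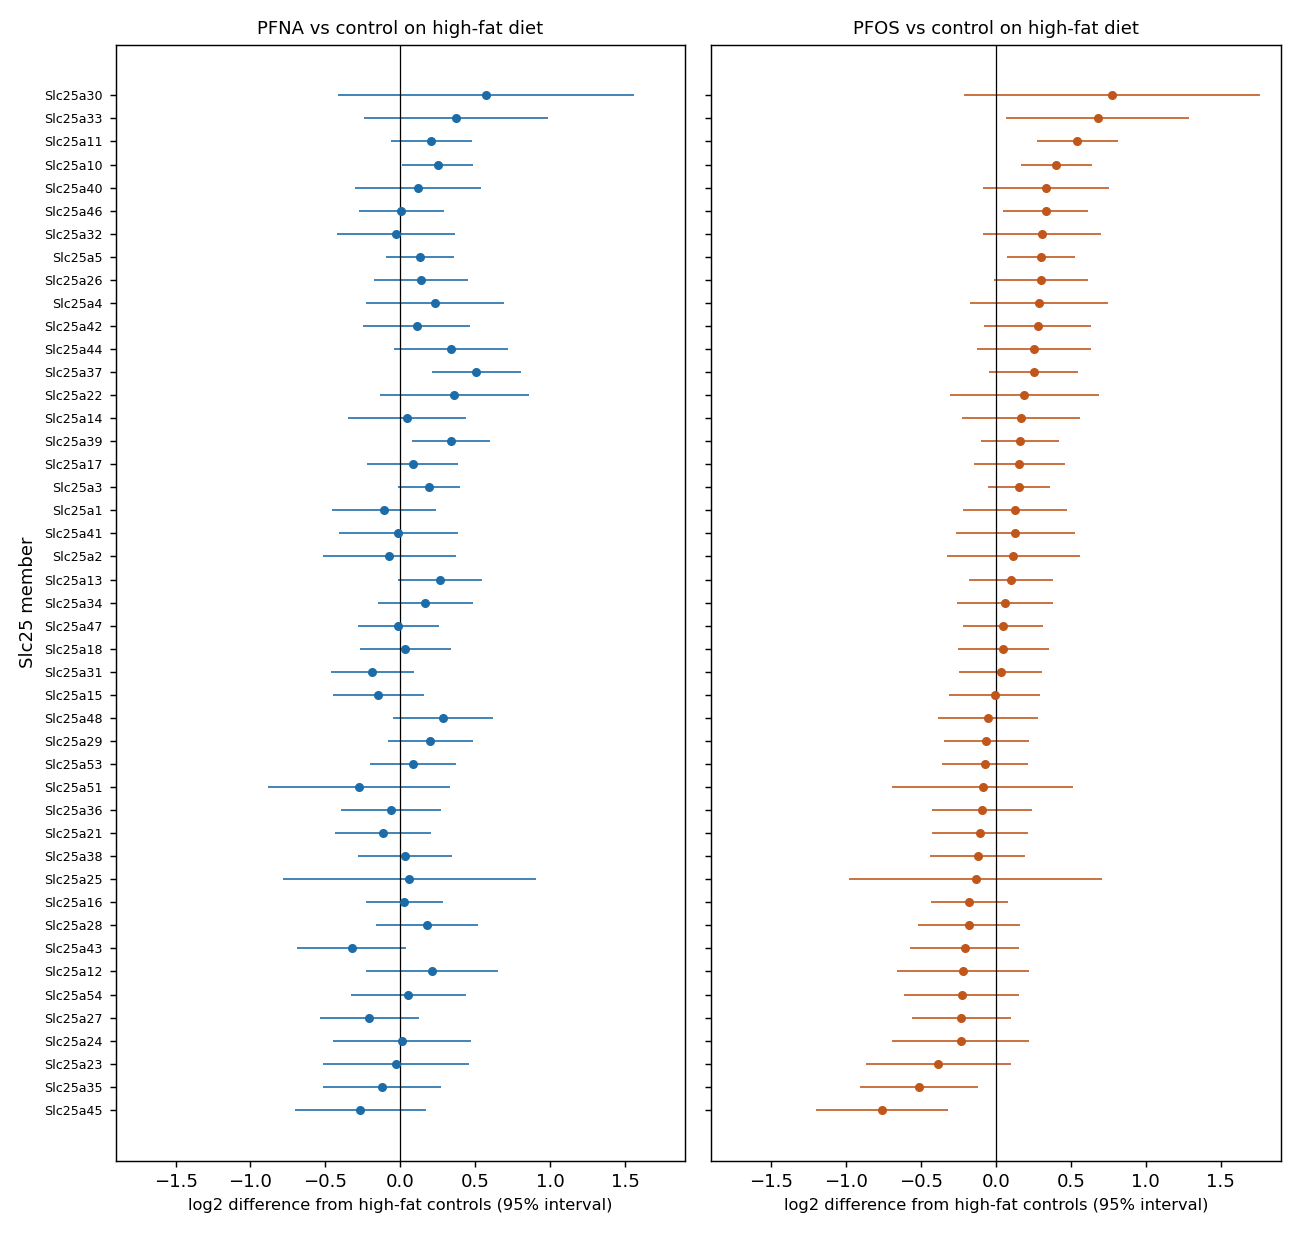
Log2 difference of each member from the high-fat controls, for PFNA on the left and PFOS on the right, with 95% intervals from limma, ordered by the PFOS difference. The PFOS intervals of 7 members, among them Slc25a11, Slc25a10 and Slc25a45, exclude 0 before adjustment, and no member passed after it.

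The count of members whose arrays did not overlap between groups was set beside the share among the brighter probes. The members' shares are of all members, including 8 at or below the median signal, so the 2 shares are not of probes of like signal. With PFNA on the low-fat diet 12 members lay wholly above the controls (26.7%, against 10.1% of all probes and 16.3% of brighter probes) and 7 wholly below (15.6%, against 9.32% and 11.2%). With PFOS on the high-fat diet 8 lay above (17.8%, against 9.71% and 14.3%) and 3 below (6.67%, against 8.68% and 11.8%). With PFNA on the high-fat diet the counts were 4 above (8.89%, against 6.83% and 9.5%) and 1 below (2.22%, against 6.89% and 7.68%). With PFOS on the low-fat diet they were 5 above (11.1%, against 7.58% and 11.7%) and 1 below (2.22%, against 8.12% and 7.83%). Median differences of the family were 0.03 to 0.06 in the 4 comparisons with controls, against -0.02 to -0.01 for all probes. They depended on the scaling, at 0.09 to 0.11 with array medians subtracted (all probes 0.03 to 0.05). After quantile normalization they were 0.08 for each compound on the high-fat diet, and 0.02 for PFNA and 0.01 for PFOS on the low-fat diet.

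Diet alone gave no call in the family. Between high-fat and low-fat controls no member reached an unadjusted p under 0.05, against 6.45% of all probes. The smallest p belonged to Slc25a3, at 8.47, 8.60 and 8.42 in high-fat controls, against 8.66, 8.72 and 8.59 in low-fat controls, a difference of -0.16 (adjusted p 0.844 in limma), and next came Slc25a11 at -0.21 (adjusted p 0.844), or -0.13 without low-fat control replicate 1. Differences were below 0 for 31 members and above 0 for 14, with a median of -0.09, against -0.01 for all probes. Stellate cell markers averaged 7.81 to 8.88 in high-fat controls, against 7.58 to 7.86 in low-fat controls. Their median difference was 0.41, with 3 of 5 at an unadjusted p under 0.05. High-fat control replicate 1 set the upper end, with Col1a1 at 8.41 there and at 6.22 and 6.85 in replicates 2 and 3. The lowest high-fat control lay within the low-fat range. The part of these markers in the family's values was not tested. No member lay wholly above the low-fat controls (against 4.84% of all probes) and 2 lay wholly below, Slc25a42 and Slc25a44 (4.44%, against 5.54% of all probes and 5.12% of brighter probes).

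Between the compounds, 1 pair was compared on each diet, with doses unknown, and p-values were adjusted over all probes. On the high-fat diet Slc25a11 was 0.34 lower with PFNA than with PFOS (difference -0.34, 95% interval -0.61 to -0.07) and Slc25a46 differed by -0.33, both with an adjusted p of 0.654 in limma. Slc25a45 differed by 0.49 (interval 0.06 to 0.93, adjusted p 0.659) and Slc25a28 by 0.36 (adjusted p 0.682, and 0.55 without high-fat PFNA replicate 3). The PFNA arrays lay wholly below the PFOS arrays for Slc25a11 and Slc25a46, and wholly above for Slc25a45. At an unadjusted p under 0.05 stood 4 members (8.89%, against 7.26% of all probes and 8.76% of brighter probes). In all, 4 members were wholly above (8.89%, against 5.13% of all probes and 6.27% of brighter probes) and 4 wholly below (8.89%, against 5.14% and 5.08%). Without the 2 divergent arrays Slc25a35 was called, with PFNA above PFOS by 0.62 (adjusted p 0.0387), where 1.48% of all probes were called. High-fat PFNA replicate 3, at 4.82, was left out because it lies with the PFOS arrays, which widens the gap between the compounds by construction, so this call supports nothing. With low-fat food, 1 member had an unadjusted p under 0.05 (2.22%, against 3.92% of all probes and 2.94% of brighter probes), and 2 lay wholly above (4.44%, against 4.62% and 3.8%) and 0 wholly below (0%, against 4.36% and 4.74%). Slc25a32, a carrier of folate and FAD, differed by -0.40 (interval -0.79 to just below 0, adjusted p 0.998, and -0.24 without low-fat PFOS replicate 3), and Slc25a29, a carrier of basic amino acids, by 0.26 (interval -0.03 to 0.54, adjusted p 0.998). These intervals do not show that the compounds act alike, and the number of arrays limits the precision.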

How the data were processed

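RNA from 18 livers, 3 for each of 6 groups taken from the labels, was hybridised to expression arrays. Per the submitters' processing notes, the authors made the values with Transcriptome Analysis Console, with its version, background correction, normalization and summarization not stated. As the labels name no base, the deposited values were read as log2 signal from their range. Probes with 1 symbol were 23521, with several 1814 and with none 9137, from the series' probe annotation, and all 45 members matched RefSeq. One further probe with several symbols, Rangrf and Slc25a35, was not used.

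limma 3.58.1 in R 4.3.3 was fitted to all 34472 probes and 18 arrays with 1 mean per group (12 residual and 5.21 prior degrees of freedom) and 9 contrasts, adjusted by Benjamini and Hochberg within each contrast at 0.05. The fit was tested on simulated data. Errors are SE or SD with n = 3 arrays, and intervals are 95%. The members and the lists were chosen with earlier results of these data known. Every member may be named. The rule gave full values to called members and, per contrast, to the 2 with the smallest p, and other members shown are those with an unadjusted p under 0.05, non-overlapping arrays, a large spread or a known liver role, chosen after their values were seen. Replicate numbers are shared by the groups, and same-numbered arrays correlated by -0.07 to 0.04 over 21 pairs, none over 0.1, so the arrays were not treated as paired. Alternatives were quantile normalization, array medians subtracted, brighter probes only, a variance trend with robust fitting, a replicate block, each array left out, and the 2 divergent arrays left out. A table of proteins was not used here, so the carrier signature was not analysed.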

Additional observations from a re-analysis of the deposited data

Results flagged for a closer look

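Slc25a42, a carrier of coenzyme A, drew attention because its PFOS arrays lay on opposite sides of the mean of their controls on the 2 diets. It measured 9.05, 9.34 and 9.52 in high-fat PFOS livers, against 8.96, 9.13 and 8.98 in high-fat controls with a mean of 9.02, and 8.80, 9.11 and 9.25 in low-fat PFOS livers, against 9.14, 9.52 and 9.23 in low-fat controls with a mean of 9.30. High-fat PFOS replicate 1, at 9.05, and low-fat PFOS replicate 3, at 9.25, lay within the range of their controls, so the groups overlapped on both diets. The interaction of diet with PFOS was 0.52 with an adjusted p of 0.772 in limma, so the difference did not pass the test.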

How the results depend on the processing

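No member was called in the 9 comparisons as reported, and the count of called members stayed at 0 with each array left out in turn (range 0 to 0), with a replicate block (0 in each comparison) and, apart from the exceptions that follow, in the other settings. For PFOS against control on the high-fat diet, the count was 1 after quantile normalization (Slc25a11, adjusted p 0.0436), 1 with array medians subtracted (0.0445), 1 with a variance trend and robust fitting (0.0264), 3 among brighter probes only (Slc25a11 0.0215, Slc25a10 0.035, Slc25a45 0.0458) and 3 without the 2 divergent arrays (Slc25a45 0.0176, Slc25a11 0.0252, Slc25a35 0.0395), where 2.93% of all probes were called. Those arrays are not in the groups of that comparison, and leaving them out lowers the shared spread of these 3 members by construction. For the other settings the share of all probes called is not given here, so their counts show nothing particular to the family. Without the 2 divergent arrays, PFNA against PFOS on the high-fat diet had 1 call (1.48% of all probes called). The interaction of diet with PFOS had 1 (0.241% of all probes called). Both were Slc25a35, and the choice of those arrays widens both by construction. Differences were followed through the settings for members with an unadjusted p under 0.05 or among the 2 smallest p of a comparison. None of these changed sign, and the other differences named in the text were not followed. Over 13 settings the adjusted p of Slc25a11 for PFOS on the high-fat diet lay between 0.0215 and 0.161. Of 42 comparisons of an array with the 3 of the other group, 9 were closest to their own number, so the replicate numbers share only a number. The cause of the other shifts was not tested. Each member had 1 probe, so averaging probes of a gene gives no other value. Subtracting array medians moved the median of all probes by 0.07 at most and turned the family median for PFNA against PFOS on the low-fat diet to -0.01. The number of arrays limits the precision.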
